A study of Mus musculus with 96 samples.

Results

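Cytochrome P450 enzymes of the Cyp2 and Cyp3a families sit in the membrane of the endoplasmic reticulum of hepatocytes and oxidise drugs, plant compounds, steroids and fatty acids. They take electrons from the reductase Por, carry haem made from the Alas1 pathway, and many are induced through the nuclear receptors CAR (Nr1i3) and PXR (Nr1i2). In rodent liver the family is also known for sex-biased members that follow growth hormone, for zonation along the lobule and for regulation by the clock through PAR bZIP factors such as Dbp. The genes described here were the rows of the count table named Cyp2a, Cyp2c, Cyp2d, Cyp2f, Cyp2g, Cyp2j, Cyp2r or Cyp3a with a number, pseudogenes and the Cyp2b and Cyp2e genes left out, with a mean of at least 0.5 CPM (counts scaled to a common library total, the usual per-million unit) over the 96 libraries. Of 45 such names, 33 genes met that floor, out of 35670 genes with any count. They were 13 Cyp2c, 6 Cyp2d, 4 Cyp2a, 4 Cyp3a and 3 Cyp2j genes with Cyp2f2, Cyp2g1 and Cyp2r1. Just inside the floor lay Cyp2d11 at 0.802 CPM and Cyp2g1 at 1.48 CPM, and just outside it Cyp2d12 at 0.478 CPM and Cyp3a44 at 0.149 CPM.

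The libraries were poly(A) RNA-seq of liver from mice aged 12 to 16 weeks. A Bmal1 line (Bmal1 WT and Bmal1 KO, the gene Arntl) and a Cry line (Cry1/2_WT and Cry1/2_dKO, both cryptochromes) were each kept under ad libitum feeding (AL) or night-restricted feeding (RF), which gives 8 groups. Each group had 12 libraries, 2 at each of 6 zeitgeber times (ZT) 4 h apart, and the labels number them as 2 replicate series per group. The sources used here do not state strain, sex or how the alleles were made. They also leave unstated whether libraries of a group came from separate mice, and the p-values then cover only the spread between these libraries, which may be technical. A gene is called higher or lower when its level averaged over the 6 times differed at a Benjamini-Hochberg adjusted p under 0.05 over the 18326 genes tested (edgeR). All 33 genes passed the filter on low counts.

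Total counts ran from 1478963 to 35568856 per library with a median of 25422366. Arntl stayed between 9.86 and 15.2 CPM in the Bmal1 KO AL libraries against 0.267 to 35.6 CPM in Bmal1 WT AL, and in Cry KO AL Cry1 lay between 5.40 and 10.2 CPM against 6.02 to 51.3 CPM in Cry WT AL. Counts over a whole gene do not show which exons were deleted. Xist reached at most 0.690 CPM and the Y-linked Ddx3y was never under 28.1 CPM over the 96 libraries. By these genes every library reads as male, so the sex-biased genes below were seen in males only. The 8 hepatocyte markers summed to 34201 CPM or more in every library, while lung markers reached at most 0.417 CPM and kidney markers 1.06 CPM. Intestine markers summed to 11.8 to 85.4 CPM and pancreas markers to 0 to 726 CPM. Their part in the P450 values was not tested. The labelled tissue thus had its defining markers, and the Cyp2f2, Cyp2g1 and Cyp2j genes, which are also known from lung, nose and kidney, were read in libraries where the lung and kidney markers were near 0. By high Saa1, Isg15 or pancreatic Ctrb1, 7 libraries stood apart. Of these, the Cry WT RF library at ZT12 of replicate 6 (Saa1 at 21182 CPM) was the lowest of its group for 21 of the 33 genes, and the Bmal1 KO RF library at ZT0 of replicate 4 (Saa1 at 6952 CPM) for 15. Without the 7 libraries, 22 genes were called in the Bmal1 line under AL and 23 under RF, and 19 and 5 in the Cry line, against 22, 23, 18 and 6 with them.

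Many genes of this family have near-identical copies. For 14 of the 33 genes the closest other transcript was at least 95% identical over its aligned length, and the counting of multi-mapping reads is not stated in the sources used here. The pairs include Cyp2a5 with Cyp2a4 (98.2%), Cyp2c40 with Cyp2c68 (98.0%) and Cyp3a25 with Cyp3a59 (97.0%). Values of these genes may therefore hold reads of the copy. Promoter stretches of the copies are printed because these pairs had very different levels in the same libraries. They come from RefSeq (GRCm38.p6), whose promoter table matched 29 of the 33 genes.

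The first pair lies 41 to 160 bases upstream of the RefSeq start sites of Cyp2a5, at chr7:26835179-26835298 (plus strand), and Cyp2a4, at chr7:26307032-26307151 (plus strand). Capitals mark the D-box TTATGCAA, the recognition sequence of the PAR bZIP factors, which is read here on the opposite strand.
Cyp2a5: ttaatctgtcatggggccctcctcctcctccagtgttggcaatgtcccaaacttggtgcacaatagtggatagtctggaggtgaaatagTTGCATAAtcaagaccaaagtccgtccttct
Cyp2a4: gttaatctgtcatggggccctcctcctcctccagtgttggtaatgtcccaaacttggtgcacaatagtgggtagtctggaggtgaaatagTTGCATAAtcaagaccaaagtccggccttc
Aligned, the stretches shared 116 identical bases with 3 mismatches. TTATGCAA, searched on both strands in the 250 bases before the start, was found in 0.694% of 32851 RefSeq promoters and in 2 of the 29 genes, Cyp2a5 (bases -71 to -64) and Cyp2a4 (-70 to -63). The forms TTATGTAA (0.819% of promoters) and TTACGTAA (0.113%) were in none of the 29. The E-box CACGTG, in 6.02% of promoters, was found in Cyp2j6, and the ROR element TAGGTCA, in 2.23%, in Cyp3a11. A match describes the letters only.

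The second set comes from a run of neighbouring Cyp2c genes on the minus strand of chromosome 19. Capitals mark CAAAGTCCA, a binding motif of the hepatocyte factor Hnf4a.
Cyp2c40, chr19:39812820-39812879: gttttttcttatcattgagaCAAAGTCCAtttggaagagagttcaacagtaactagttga
Cyp2c69, chr19:39886805-39886864: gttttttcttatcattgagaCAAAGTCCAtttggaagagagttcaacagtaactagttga
Cyp2c68, chr19:39741139-39741198: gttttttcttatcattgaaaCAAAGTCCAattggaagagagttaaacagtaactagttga
Cyp2c67, chr19:39649128-39649187: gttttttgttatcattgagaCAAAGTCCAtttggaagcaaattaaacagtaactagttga
Over these 60 bases Cyp2c69 was identical to Cyp2c40, Cyp2c68 differed from it at 3 bases and Cyp2c67 at 5. The motif was found in 0.384% of all promoters and in 6 of the 29 genes, these 4 with Cyp2c70 and Cyp3a11. Averaged over all libraries, Cyp2c67 and Cyp2c68 lay close together at 170.8 and 156.3 CPM per kilobase of exon. Cyp2c40 and Cyp2c69, with identical stretches, were lower at 28.9 and 19.9, as the plot of levels shows.

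Per kilobase of exon and averaged over all libraries, KO groups included, Cyp3a11, the main drug-metabolising Cyp3a of mouse liver and a PXR target, was highest at 1134 CPM per kb. It lies at chr5:145854426-145879964 (minus strand, mm10). It was followed by Cyp2c29 at 683.7, Cyp2f2 at 459.9, Cyp2d9 at 452.4 and Cyp2d26 at 434.6 CPM per kb. Over the 48 WT libraries alone Cyp3a11 was again first, at 848 ± 303 CPM per kb (SD), followed by Cyp2f2 at 460.0 ± 83.2, Cyp2a5 at 454 ± 316, Cyp2d26 at 445 ± 70.5, Cyp2c29 at 424 ± 118 and Cyp2d9 at 408 ± 117. After Cyp3a11 these differed by less than their spread. Cyp2f2 oxidises naphthalene, and Cyp2d9 is a steroid hydroxylase known for higher expression in males. At the other end Cyp2d11 lay at 0.504 CPM per kb. The 33 genes together held 1.85% of all counts. Where groups are compared, levels are CPM scaled by TMM, without division by length.

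**Figure D1:**
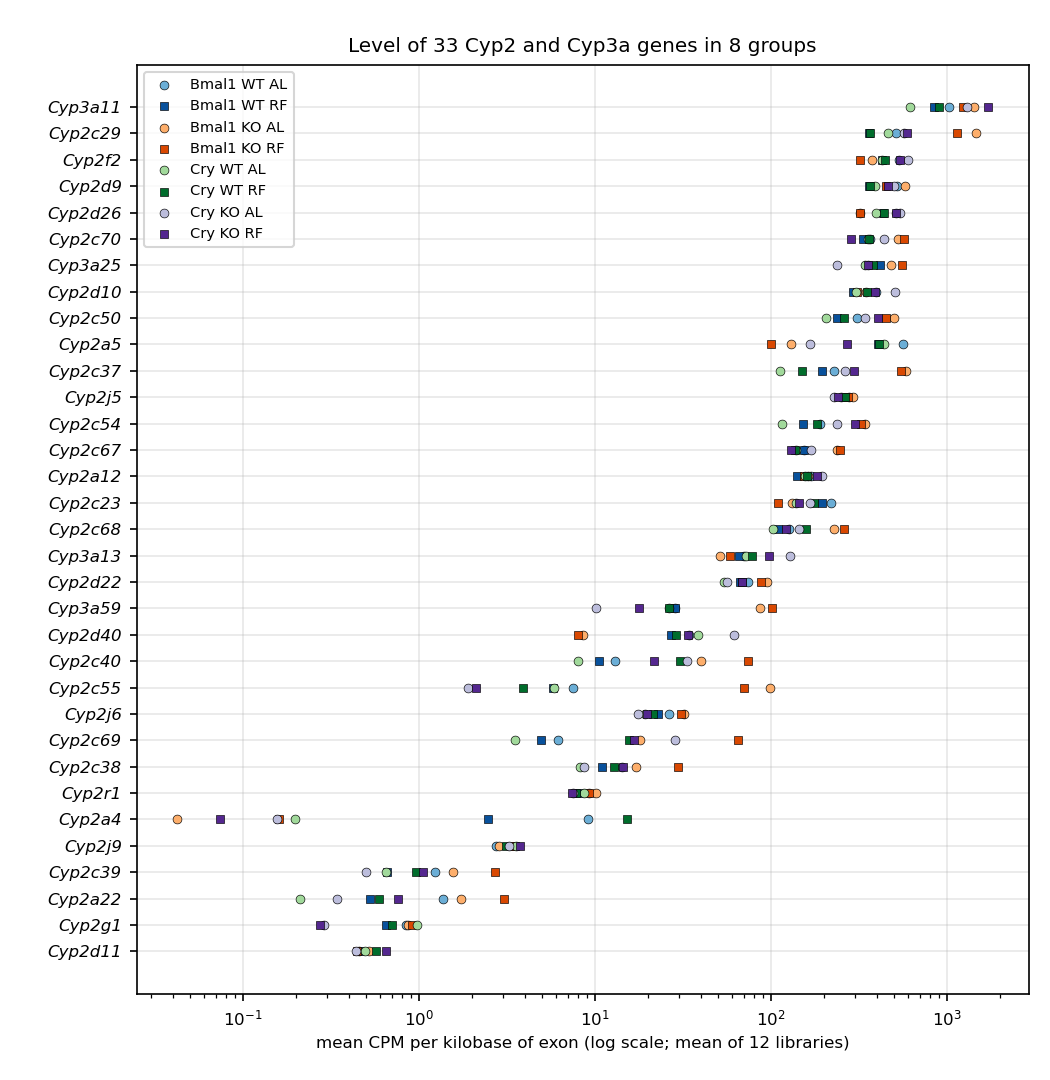
Mean level of each gene in each of the 8 groups, in CPM per kilobase of exon on a log axis; each point is the mean of 12 libraries, and genes are ordered by their mean over all libraries. Cyp3a11 is highest at a mean of 1134 CPM per kb, and Cyp2c55, Cyp2c69 and Cyp2a4 spread most between groups.

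The first question was what the loss of BMAL1, the activating arm of the clock, did to these levels. Most of the genes changed: 15 of 33 were higher and 7 lower in Bmal1 KO than in Bmal1 WT under AL, where 10.9% and 9.48% of all genes tested were higher and lower. Under RF 17 were higher and 6 lower, against 10% and 8.35% of all genes. The same 15 genes were higher and the same 6 lower in both feeding regimens, against 6.07% and 5.39% of all genes. The comparisons under AL and RF share no library. The median log2 fold change of the 33 genes was 0.34 under AL and 0.44 under RF, against 0.02 in both for all genes. By subfamily, 10 of the 13 Cyp2c genes were higher under AL and 12 under RF, with only Cyp2c23 lower in either regimen. Of the 6 Cyp2d genes 1 was higher and 2 were lower in each regimen, and of the 4 Cyp2a genes 1 was higher and 2 were lower.

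Cyp2c55, an inducible Cyp2c that hydroxylates arachidonic acid, rose most under AL. It lies at chr19:39007019-39042693 (mm10, plus strand). It ran from 5.37 to 47.7 CPM with a median of 11.0 in the Bmal1 WT AL libraries and from 122 to 244 CPM with a median of 190 in Bmal1 KO AL. The AL groups did not overlap, at a log2 fold change of 3.93 ± 0.29 (SE, adjusted p 3.17e-16). Under RF the WT libraries lay between 3.21 and 21.3 CPM with a median of 11.8 and the KO libraries between 11.4 and 230 CPM with a median of 171. There the lowest KO library, the one at ZT0 with high Saa1, fell among the WT values, at a log2 fold change of 3.68 ± 0.29 (adjusted p 3.17e-15).

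Cyp2c29, an abundant CAR- and PXR-inducible Cyp2c, was at 922 to 2184 CPM with a median of 1667 in WT AL and at 3344 to 6433 CPM with a median of 4142 in KO AL. No KO library reached down to the WT range, at a log2 fold change of 1.52 ± 0.16 (adjusted p 9.09e-11). Under RF the fold change was 1.68 ± 0.16 (adjusted p 3.99e-12), and 1 KO library, again that at ZT0 with high Saa1, was at 987 CPM and lay within the WT range of 774 to 1374 CPM. Cyp2c37, which with Cyp2c50 and Cyp2c54 forms a cluster of arachidonic acid epoxygenases and hydroxylases, had medians of 411 CPM in WT AL (165 to 621) and 996 in KO AL (552 to 1909). Its log2 fold change was 1.35 ± 0.21 under AL and 1.51 ± 0.21 under RF, with KO above WT at 6 of 6 times in each. Cyp2c54 rose by 0.86 ± 0.17 and 1.12 ± 0.17 on the log2 scale. Cyp2c50 rose by 0.69 ± 0.16 and 0.95 ± 0.16.

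The female-biased Cyp2c40 and Cyp2c69 rose from low levels and varied widely between libraries. Cyp2c40 ran from 7.87 to 86.2 CPM (median 19.4) in WT AL and from 10.5 to 193 (median 84.5) in KO AL, a log2 fold change of 1.76 ± 0.44 (adjusted p 0.00216). Under RF its medians were 11.2 CPM in WT and 125 in KO, a log2 fold change of 3.19 ± 0.47 (adjusted p 3.56e-07). Cyp2c69 ran from 0.385 to 31.8 CPM (median 3.79) in WT RF and from 2.01 to 529 (median 48.1) in KO RF. Its log2 fold change was 3.83 ± 0.60 under RF (adjusted p 1.35e-06) and 1.76 ± 0.54 under AL (adjusted p 0.0128). In both genes WT and KO libraries overlapped in both regimens. With the replicate series as a random effect, the AL calls of Cyp2c40 (1.43, adjusted p 0.263) and Cyp2c69 (1.47, adjusted p 0.481) and the RF call of Cyp2c69 (3.22, adjusted p 0.0903) were lost. Without replicate 8 of Bmal1 KO AL, the AL values were 1.02 for Cyp2c40 and 0.80 for Cyp2c69. Cyp2c68, their steadier neighbour, went from a median of 191 CPM (109 to 286) in WT RF to 440 (307 to 616) in KO RF without overlap, a log2 fold change of 1.28 ± 0.15 (adjusted p 2.04e-09).

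**Figure D2:**
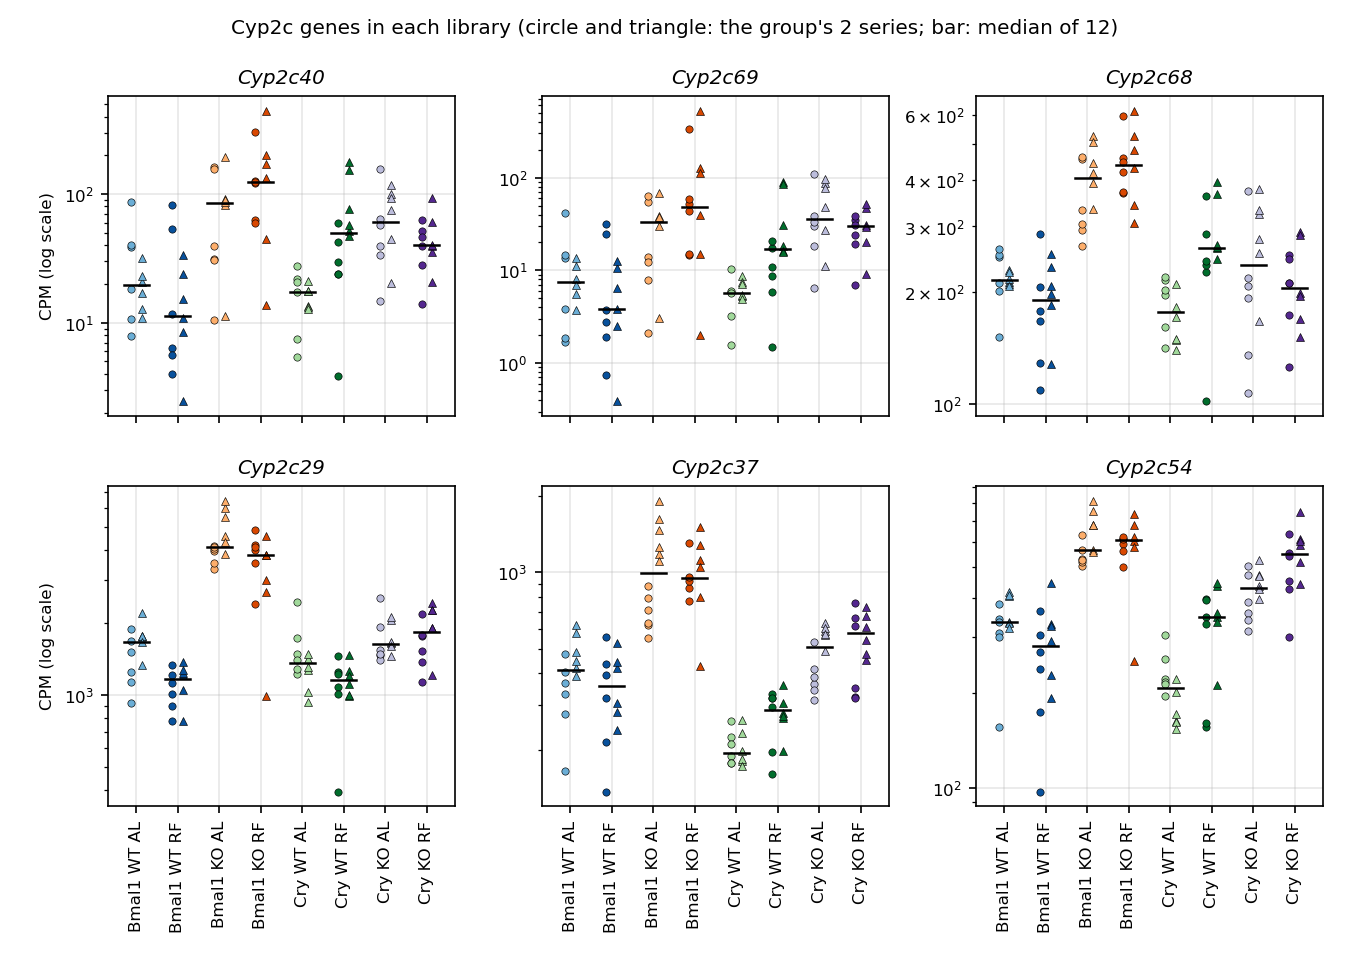
CPM on a log axis of 6 Cyp2c genes in every library; circles and triangles are the 2 replicate series of a group and the bar is the median of 12. Cyp2c29 of Bmal1 KO AL (3344 to 6433 CPM) lies clear of Bmal1 WT AL (922 to 2184), while Cyp2c69 of Bmal1 KO RF spreads from 2.01 to 529 CPM.

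Some genes passed the test under RF only. Cyp2c38 had medians of 31.9 CPM in WT RF (21.0 to 51.4) and 84.5 in KO RF (54.7 to 136), without overlap, at a log2 fold change of 1.45 ± 0.18 (adjusted p 7.77e-09), against 0.29 ± 0.18 under AL. Cyp2c39 was at 0.632 to 1.99 CPM in WT RF and 2.10 to 13.8 in KO RF, at 1.95 ± 0.25 (adjusted p 2.23e-08), against 0.43 ± 0.24 under AL. Cyp2a22, a low-level copy of Cyp2a12, had medians of 1.31 and 8.36 CPM under RF, a log2 fold change of 2.62 ± 0.40 (adjusted p 1.13e-06), and was called under AL too at 1.08 ± 0.38 (adjusted p 0.036). Whether the knockout effect itself depended on feeding was tested, and no gene of the 33 passed (0% of all genes). At an unadjusted p under 0.05, 6 of the 33 passed, as did 1154 of the 18326 genes tested, and DESeq2 called 2.

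In the Cyp3a family, Cyp3a59 changed most. It ran from 25.9 to 132 CPM (median 47.3) in WT AL and from 95.2 to 253 (median 162) in KO AL, a log2 fold change of 1.69 ± 0.21 (adjusted p 5.10e-09), and rose by 1.81 ± 0.21 under RF. It lies at chr5:146079257-146113287 (plus strand). KO means were above WT means at all 6 times in both regimens. Its near copy Cyp3a25 rose by 0.44 ± 0.13 and 0.43 ± 0.13. Cyp3a11 itself was not called: its median was 5343 CPM (298 to 7994) in WT AL and 7328 (4412 to 10538) in KO AL, a log2 fold change of 0.51 ± 0.25 (adjusted p 0.146).

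Lower in Bmal1 KO were Cyp2a5, Cyp2a4, Cyp2d40, Cyp2d26, Cyp2c23 and Cyp2f2 in both regimens, with Cyp3a13 under AL only. Cyp2d40, at chr15:82759833-82764183 (minus strand), had medians of 63.4 CPM (27.7 to 91.3) in WT AL and 15.5 (10.8 to 23.4) in KO AL, and 50.5 (25.4 to 78.2) and 13.6 (11.0 to 19.5) under RF. The groups did not overlap in either regimen, at log2 fold changes of -2.0 ± 0.21 (adjusted p 5.51e-11) and -1.71 ± 0.21 (adjusted p 4.47e-09). Cyp2a5, the coumarin hydroxylase, fell from a median of 1215 CPM (231 to 2327) to 238 (120 to 508) under AL, and from 779 (235 to 1659) to 211 (88.9 to 328) under RF. Its log2 fold change was -1.78 ± 0.24 (adjusted p 4.75e-08) and -1.79 ± 0.24 (adjusted p 3.78e-08). The WT libraries ran over a wide range through the day and their lowest values lay within the KO range. Cyp2d26 fell by 0.69 ± 0.11 under AL on the log2 scale, Cyp2c23, an epoxygenase, by 0.72 ± 0.13 and Cyp2f2 by 0.53 ± 0.12.

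Cyp2a4, a steroid hydroxylase and the near copy of Cyp2a5, was near 0 in most libraries and is best read as levels. It had a median of 0.686 CPM in Bmal1 WT AL and 0.076 in Bmal1 KO AL, where the highest library was at 0.214 CPM. A single WT AL library, at ZT12 of replicate 1, was at 172.9 CPM and held 90.9% of the group's sum. In Bmal1 WT RF 1 library, at ZT20 of replicate 2, was at 40.02 CPM and held 78.1%. In Cry WT RF 1 library, at ZT20 of replicate 6, was at 284.8 CPM and held 89.4%. The sums of Cyp2a4 in these groups thus rest on single libraries, and its calls were lost with the replicate series as a random effect.

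Cyp2r1, a vitamin D hydroxylase, lies at chr7:114549682-114562972 (mm10), 1.24 Mb from Arntl on the same chromosome. It was at 14.0 to 27.5 CPM in Bmal1 WT AL and 14.1 to 26.5 in Bmal1 KO AL, a log2 fold change of 0.14 ± 0.10 (adjusted p 0.335), and differed by 0.20 ± 0.10 under RF (adjusted p 0.168). The groups overlapped almost wholly. With Cyp2d9, Cyp2j5, Cyp2j9 and Cyp2d11 it was among the 5 genes called in none of the 4 knockout comparisons, as were 53.6% of all genes. Cyp2j5, an arachidonic acid epoxygenase, was steady, with group medians between 524 and 685 CPM.

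Other features of the Bmal1 KO livers moved beside these genes. Albumin (Alb), the most abundant hepatocyte marker, was at 49058 to 100110 CPM in WT AL and 11745 to 31211 in KO AL, a log2 fold change of -1.78 ± 0.14 (adjusted p 3.26e-15), and -1.27 ± 0.14 under RF. The sum of the 8 hepatocyte markers had medians of 102493 CPM in WT AL and 45679 in KO AL without overlap. Of the 8 markers, 3 were lower under AL and 1 under RF, none was higher, and the list's median log2 fold change was -0.25 and -0.18. Of all genes, 9.48% were lower and 10.9% higher under AL, and 8.35% and 10% under RF. Of 10 acute phase genes 4 were lower under AL (Saa1, Saa2, Saa3 and Orm3) and none under RF. Of 11 pericentral genes outside the 33, Cyp2e1 included, 4 were higher and none lower in each regimen, Oat by 1.10 ± 0.18 under AL. In bulk tissue, fewer cells of a type and less RNA per cell cannot be told apart, and the part of these markers in the P450 results was not tested. Under every alternative tried, 10 of the 22 calls under AL and 15 of the 23 under RF were kept, among them Cyp2c29, Cyp2c37, Cyp2c54, Cyp2c68, Cyp2c55, Cyp3a59, Cyp2a5, Cyp2c23 and Cyp2d40 in both.

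**Figure D3:**
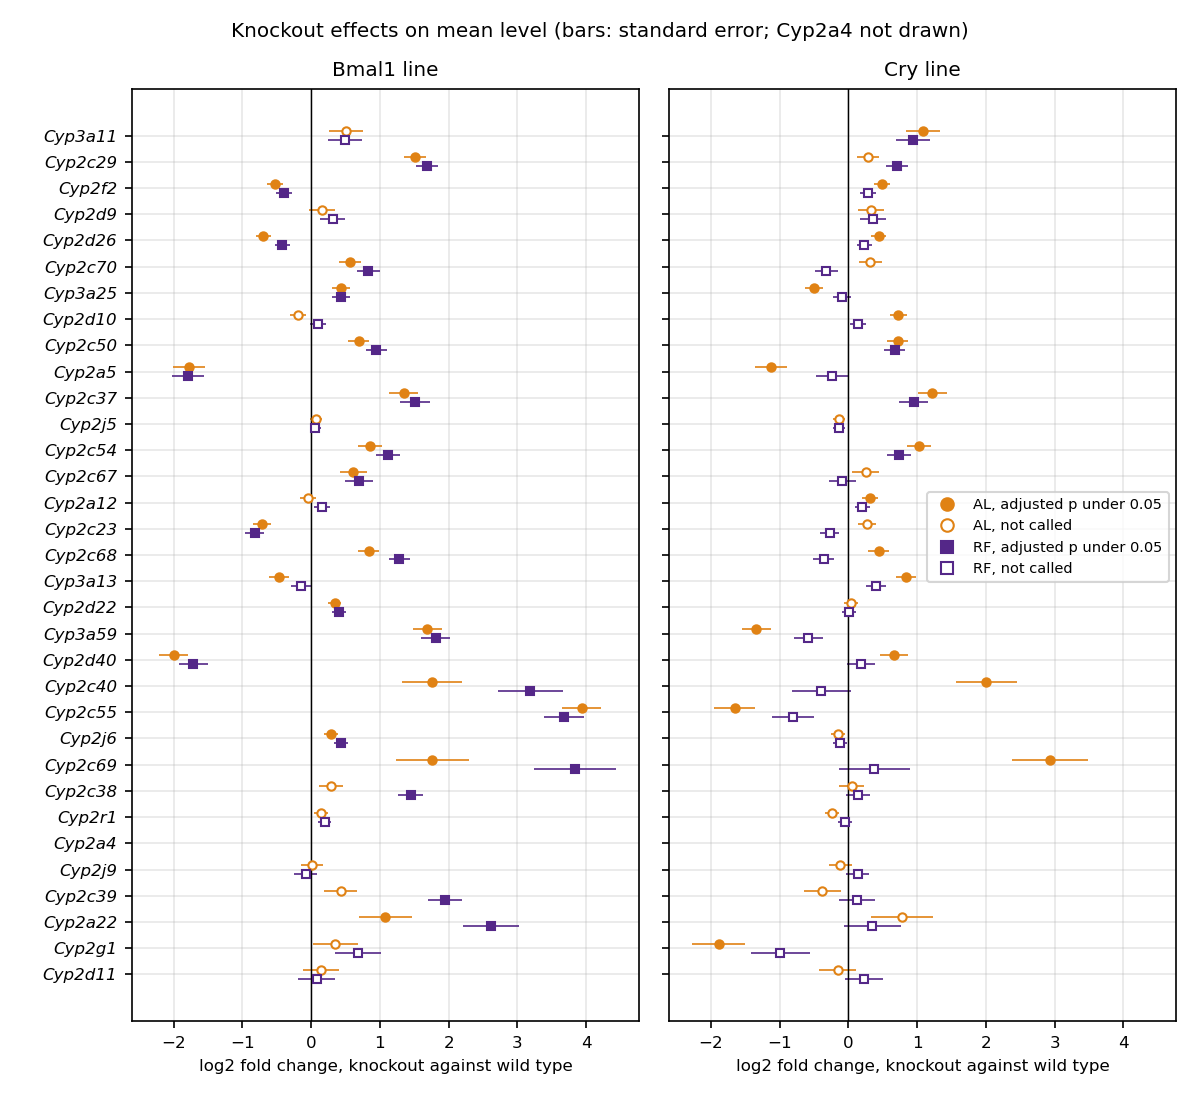
Log2 fold change of knockout against wild type for each gene in the Bmal1 line (left) and the Cry line (right); bars are standard errors, filled symbols had an adjusted p under 0.05, circles are AL and squares RF, and Cyp2a4 is not drawn. Cyp2c55 lies at 3.93 and 3.68 in the Bmal1 line and at -1.65 and -0.81 in the Cry line.

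The loss of both cryptochromes, the repressing arm, was compared in the same way. Under AL 13 of the 33 genes were higher and 5 lower in Cry KO than in Cry WT, where 15.7% and 11.7% of all genes were. Under RF 5 were higher and 1 was lower, against 2.67% and 2.49% of all genes. The median log2 fold change was 0.29 under AL and 0.13 under RF, against -0.06 and -0.04 for all genes. Cyp3a11, Cyp2c50, Cyp2c37 and Cyp2c54 were higher in both regimens, as were 1.82% of all genes. Of the marker lists, 3 of 5 stellate markers were lower in Cry KO AL (list median -0.45), 1 endothelial and 1 Kupffer cell marker were lower, 2 cholangiocyte markers were higher and 1 was lower, and of the 8 hepatocyte markers 1 was higher and 1 lower. In Cry KO RF 3 of 5 pancreas markers were higher, with a summed level of 0.0791 to 726 CPM (median 1.15) against 0.0690 to 0.490 CPM in Cry WT RF, and 2 hepatocyte markers were lower. The part of these markers in the results was not tested.

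Cyp3a11 had a median of 3075 CPM (1876 to 4992) in Cry WT AL and 6122 (4486 to 9302) in Cry KO AL, a log2 fold change of 1.09 ± 0.25 (adjusted p 0.000925). Under RF its WT libraries lay between 1969 and 6143 CPM (median 4564) and its KO libraries between 6199 and 14484 (median 8542). The RF groups did not overlap, at 0.94 ± 0.25 (adjusted p 0.013). Cyp2c37 went from a median of 194 CPM (173 to 263) to 509 (314 to 629) under AL without overlap, a log2 fold change of 1.22 ± 0.21 (adjusted p 2.10e-05), and rose by 0.95 ± 0.21 under RF (adjusted p 0.00222). Cyp2c54 went from 208 (153 to 305) to 431 (315 to 526) under AL, also without overlap, at 1.03 ± 0.17 (adjusted p 1.34e-05), and rose by 0.73 ± 0.17 under RF. Cyp2c50 rose by 0.72 ± 0.16 and 0.67 ± 0.16. Cyp2c29 passed under RF, by 0.71 ± 0.16 (adjusted p 0.00249), and its AL value was 0.29 ± 0.16.

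Cyp2c40 and Cyp2c69 rose in Cry KO under AL. Cyp2c40 had medians of 17.4 CPM (5.41 to 27.6) in WT and 60.6 (14.7 to 158) in KO, a log2 fold change of 2.01 ± 0.44 (adjusted p 0.000564). Cyp2c69 had medians of 5.76 (1.58 to 10.3) and 36.0 (6.44 to 108), a log2 fold change of 2.93 ± 0.55 (adjusted p 7.66e-05). Under RF the values were -0.39 ± 0.43 for Cyp2c40 and 0.38 ± 0.52 for Cyp2c69, neither called, with Cry WT RF medians of 49.5 and 16.9 CPM. The knockout effect under RF minus that under AL was tested and called for 4 of the 33 genes, against 3.93% of all genes: Cyp2c69 (-2.55 ± 0.75), Cyp2c40 (-2.40 ± 0.61), Cyp2c68 (-0.80 ± 0.21) and Cyp2d10 (-0.59 ± 0.17). These 4 calls were lost with the replicate series as a random effect and when the 7 libraries were left out. Without replicate 9 of Cry WT RF, the difference was -1.17 for Cyp2c40 and -1.21 for Cyp2c69.

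Lower in Cry KO under AL were Cyp2g1, Cyp2c55, Cyp3a59, Cyp2a5 and Cyp3a25. Cyp2g1, known from the olfactory mucosa, had a median of 1.82 CPM (0.104 to 6.22) in WT and 0.730 (0.067 to 1.26) in KO, a log2 fold change of -1.88 ± 0.39 (adjusted p 0.000229). Without replicate 2 of Cry WT AL it was -0.40 (adjusted p 0.607). Cyp2a5 had medians of 660 CPM (198 to 2436) and 350 (151 to 503), a log2 fold change of -1.12 ± 0.23 (adjusted p 0.000289). KO was above WT at 2 of the 6 times, and without replicate 2 of Cry WT AL the value was -0.38 (adjusted p 0.317). Under RF Cyp2a5 differed by -0.24 ± 0.23, not called.

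The spread between series limits the Cry line. In Cry KO AL the 2 series differed by a median size of 0.51 on the log2 scale over all genes, against 0.13 to 0.21 in the other groups, and by 0.39 over the 33 genes. Of the 18 AL calls, 6 were kept with the replicate series as a random effect and 4 under every alternative (Cyp2c37, Cyp2c54, Cyp3a13 and Cyp3a59). Of the 6 RF calls none was kept with the random effect, and all were lost without replicate 5 of Cry KO RF. Cyp3a11 was at 0.77 (adjusted p 0.183) under AL without replicate 2 of Cry KO AL, and at 0.70 (adjusted p 0.387) under RF without replicate 5 of Cry KO RF.

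The 2 lines were called in opposite directions under AL for 7 genes, Cyp2c55, Cyp3a59, Cyp3a25, Cyp2d40, Cyp2d26, Cyp2f2 and Cyp3a13, where 6.43% of all genes were. Under RF there was none, against 1.71% of all genes. The difference of the effects (Cry minus Bmal1) was tested directly. It passed for 14 of the 33 genes under AL, where 34.5% of all genes passed, and for 18 under RF, where 13% did. All 7 genes passed the direct test under AL and under every alternative, which shows that the effects differed, not that both were called. With the replicate series as a random effect, only Cyp3a59 stayed called in both lines. The Cry calls of Cyp2c55 (adjusted p 0.0854), Cyp3a25 (0.122), Cyp2d40 (0.198), Cyp2d26 (0.0856) and Cyp2f2 (0.0805) were then lost, as were the Bmal1 calls of Cyp3a25 (0.216) and Cyp3a13 (0.155).

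Cyp2c55 was up in Bmal1 KO and down in Cry KO AL, where its median fell from 11.6 CPM (4.16 to 20.8) to 3.07 (1.57 to 7.07), a log2 fold change of -1.65 ± 0.29 (adjusted p 3.13e-05). The effects differed by -5.59 ± 0.41 under AL (adjusted p 2.40e-16) and -4.49 ± 0.41 under RF (adjusted p 1.04e-12). Cyp3a59 went from a median of 51.3 CPM (17.3 to 116) in Cry WT AL to 16.9 (11.3 to 36.1) in Cry KO AL, a log2 fold change of -1.34 ± 0.21 (adjusted p 3.74e-06), and its effects differed by -3.03 ± 0.30. Its copy Cyp3a25 had medians of 707 (310 to 1136) and 453 (373 to 694), at -0.50 ± 0.13, and a difference of -0.94 ± 0.18. These 3 genes were thus higher without BMAL1 and lower without the cryptochromes under AL.

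The other 4 went the other way. Cyp2d40 had a median of 69.7 CPM (49.0 to 98.6) in Cry WT AL and 110.3 (43.7 to 194) in Cry KO AL, a log2 fold change of 0.66 ± 0.20 (adjusted p 0.0111), and its effects differed by 2.66 ± 0.29. Without replicate 2 of Cry KO AL, its Cry effect was -0.10. Cyp3a13, a Cyp3a of gut and liver, had medians of 206 (135 to 310) and 395 (226 to 515), at 0.84 ± 0.14 (adjusted p 1.64e-05), against -0.47 ± 0.14 in the Bmal1 line (adjusted p 0.0125). Cyp2d26 rose by 0.44 ± 0.11 in Cry KO AL, from a median of 704 CPM (608 to 827) to 945 (671 to 1211), and its effects differed by 1.13 ± 0.16. Cyp2f2 rose by 0.48 ± 0.12, from 846 (726 to 985) to 1204 (909 to 1643), and its effects differed by 1.01 ± 0.17. Without replicate 2 of Cry KO AL, the Cry effects were 0.14 for Cyp2d26 and 0.25 for Cyp2f2.

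Genes moving the same way in both lines were Cyp2c50, Cyp2c37 and Cyp2c54, higher in all 4 knockout comparisons, as were 0.18% of all genes. Under AL Cyp2c68, Cyp2c40 and Cyp2c69 were also higher in both lines (6 genes in all, against 0.758% of all genes), and Cyp2a5 was lower in both (against 0.551%). The differences between the lines for Cyp2c37 were -0.12 ± 0.30 under AL and -0.56 ± 0.30 under RF, not called.

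Over the day, few of these genes had a 24 h rhythm by the cosine fit (adjusted p under 0.05, with fitted peak and trough at least 0.5 log2 units apart). There were 5 in Bmal1 WT AL (7.98% of all genes were rhythmic), 4 in Bmal1 WT RF (10.7%), 3 in Cry WT AL (5.74%) and 4 in Cry WT RF (15.8%). None was rhythmic in Bmal1 KO AL (0.273%), Bmal1 KO RF (4.94%) or Cry KO AL (0.0109%), and 1 was in Cry KO RF (5.97%). At an unadjusted p under 0.05 there were 1, 5 and 3 in the groups with none, and the share of all genes at that threshold was not counted. In simulated counts of 18326 genes, rhythms were added in Cry KO AL only. A range of 1 log2 unit was recovered for 19.4% of these and a range of 2 for 86.4%. Narrow rhythms were thus mostly not detectable in Cry KO AL, and the other groups were not simulated for rhythm. The simulated libraries were drawn independently, with no shift shared by a series. The real series of Cry KO AL differed by a median size of 0.51 on the log2 scale, so recovery in the real counts may be lower.

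With all libraries, Cyp2a5 was called rhythmic in all 4 WT groups and in no KO group. The call was lost in Bmal1 WT RF with either series left out, and in Cry WT AL with at least 1 of its series left out. In Bmal1 WT AL the mean of Cyp2a5 over 2 libraries was 326 CPM at ZT0, 314 at ZT4, 1727 at ZT8, 1874 at ZT12, 1996 at ZT16 and 772 at ZT20. In Bmal1 KO AL the same means lay between 162 and 345 CPM. The fitted range in Bmal1 WT AL was 3.11 log2 units with a peak at ZT13.0 (adjusted p 7.25e-05). In Bmal1 WT RF the range was 2.35 with a peak at ZT13.4, in Cry WT AL 2.82 at ZT14.4 and in Cry WT RF 2.89 at ZT14.2. In the KO groups the fitted range was 0.66 and 0.59 in the Bmal1 line (AL and RF) and 0.55 and 0.12 in the Cry line. The loss of rhythm itself passed the test in the Cry line under RF (adjusted p 0.034), and the call was lost when any 1 of the 4 series was left out. There the WT means went from 164 CPM at ZT4 to 1532 at ZT16, while the KO means stayed between 462 and 665.

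**Figure D4:**
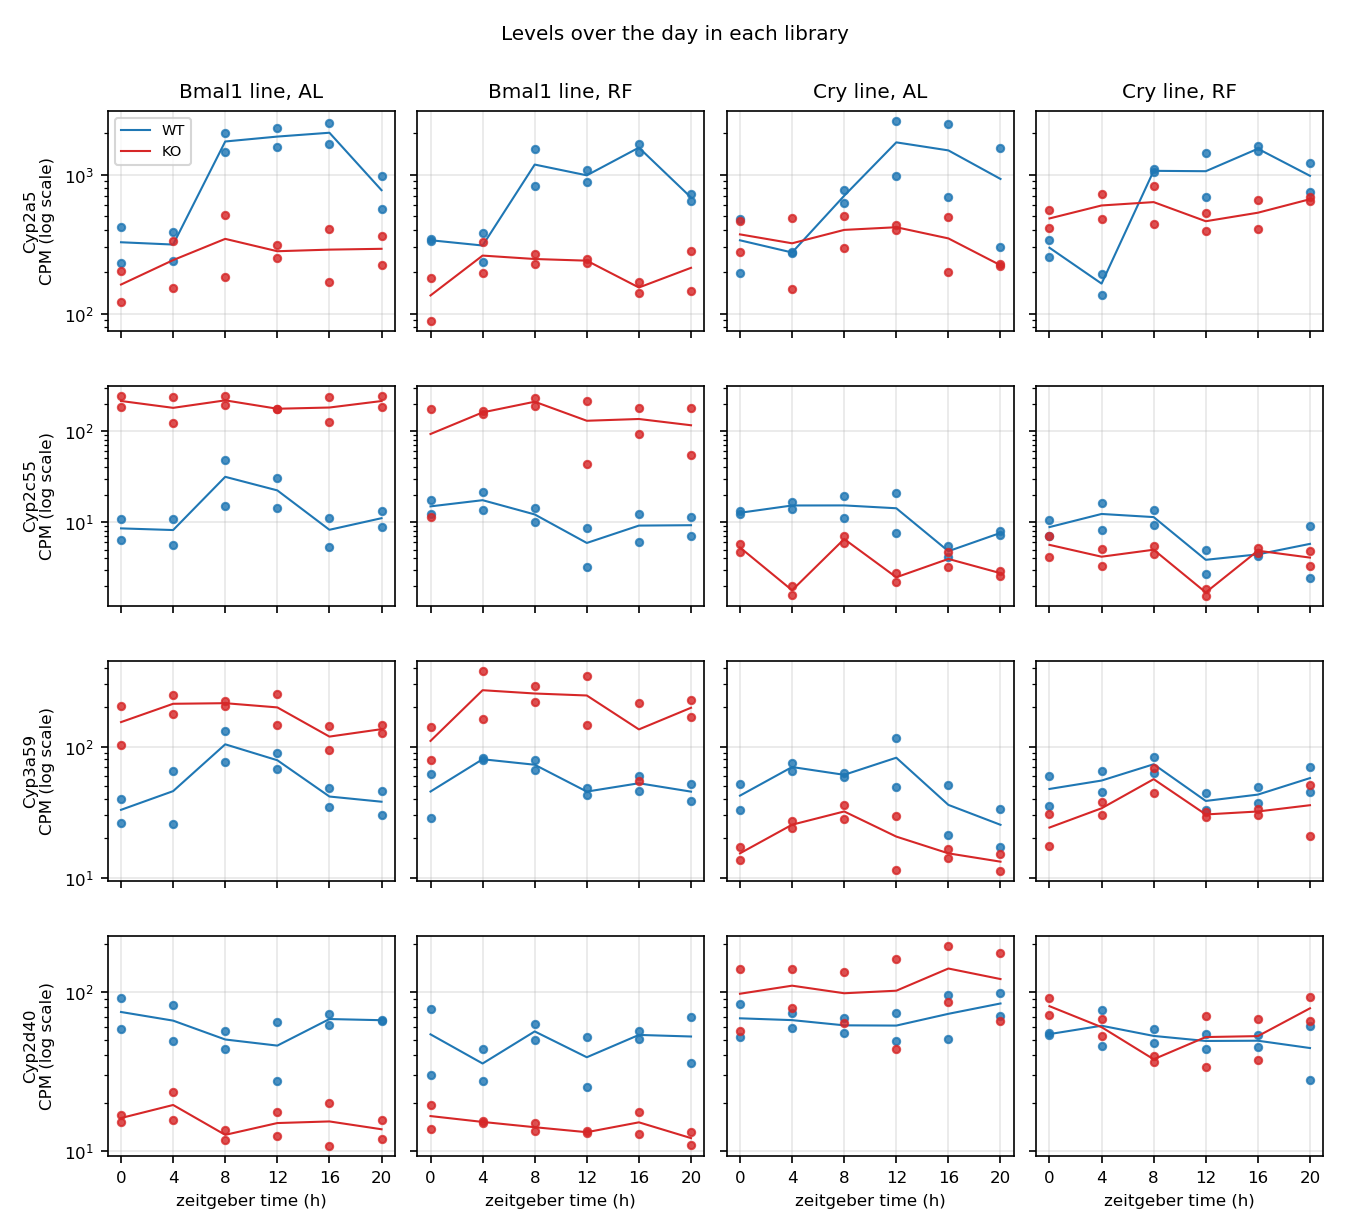
CPM on a log axis against zeitgeber time for Cyp2a5, Cyp2c55, Cyp3a59 and Cyp2d40, by line and feeding regimen; points are libraries and lines join the means of WT (blue) and KO (red). The mean of Cyp2a5 in Bmal1 WT AL goes from 314 CPM at ZT4 to 1996 at ZT16, and Cyp2c55 of Bmal1 KO lies above WT over the day.

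Among the Cyp3a genes, Cyp3a59 was rhythmic in Bmal1 WT AL (range 1.59, peak ZT9.6, adjusted p 0.0127), with a mean of 104 CPM at ZT8 and 38.1 at ZT20, and in Cry WT AL (1.54, ZT8.1). Cyp3a25 was rhythmic in Bmal1 WT RF (0.91, ZT7.1) and Cry WT AL (1.19, ZT7.1), and Cyp3a13 in Cry WT RF (1.06, ZT16.8). Cyp3a11 was rhythmic in no group by this test. Cyp2c70, which makes the muricholic bile acids of rodents, was rhythmic in Bmal1 WT RF with a peak at ZT21.8 (1.21), from 389 CPM at ZT12 to 1088 at ZT20. Cyp2c55 was rhythmic in Bmal1 WT AL (1.71, ZT9.8).

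Cyp2g1 was rhythmic in Bmal1 WT AL (2.41, ZT8.2) and Cry WT RF (3.23, ZT9.1). In Cry WT RF its means went from 4.25 CPM at ZT8 to 0.413 at ZT20, and in Cry KO RF they stayed between 0.189 and 1.12, a difference in rhythm that passed (adjusted p 0.033) but was also lost when any 1 series was left out. Cyp2g1 and Cyp2a5 were the 2 genes of 33 called in that test, where 2.16% of all genes were. In the other tests of rhythm difference none was called (Bmal1 line AL 0.611% and RF 1.06%, Cry line AL 0.677% of all genes). At an unadjusted p under 0.05 there were 3, 2 and 3, and the share of all genes at that threshold was not counted. Cyp2j9 was the only gene rhythmic in a KO group, Cry KO RF, with a mean of 26.7 CPM at ZT8 and 7.34 at ZT0 (1.70, ZT8.2). Cyp2a4 was called rhythmic in Bmal1 WT AL, Bmal1 WT RF and Cry WT RF, the groups in which 1 library held most of its sum. With either series left out, 0 to 2 genes were rhythmic in each WT group.

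Feeding was compared within each genotype. In Bmal1 WT 5 genes were lower under RF than AL and none was higher (7.2% and 6.67% of all genes). By smallest p, Cyp2d10 was at 538 to 865 CPM (median 625) under AL and 373 to 583 (median 496) under RF, a log2 fold change of -0.45 ± 0.12 (adjusted p 0.012). Cyp2c29 fell from a median of 1667 CPM to 1164 (-0.52 ± 0.16, adjusted p 0.0255) and Cyp2c39 from 1.56 to 1.14 (-0.77 ± 0.26, adjusted p 0.0369). Cyp2f2 and Cyp2d9 were the others. In Bmal1 KO 1 gene was higher (0.6% of all genes) and none was lower (0.0382%). It was Cyp2c38, with medians of 50.9 CPM under AL and 84.5 under RF (0.79 ± 0.18, adjusted p 0.0207). The next smallest p-values there belonged to Cyp2c39 (0.75 ± 0.24, adjusted p 0.109) and Cyp2c69 (1.38 ± 0.52, adjusted p 0.185), which were not called.

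In Cry WT 5 genes were higher under RF and none lower (0.622% and 0.835% of all genes). Cyp2c40 had medians of 17.4 CPM under AL (5.41 to 27.6) and 49.5 under RF (3.84 to 177), a log2 fold change of 1.79 ± 0.44 (adjusted p 0.0219). Without replicate 9 of Cry WT RF it was 0.56 (adjusted p 0.811). Cyp2a22 had medians of 0.837 and 1.97 CPM (1.53 ± 0.42, adjusted p 0.0471), and Cyp2c54, Cyp2c68 and Cyp2a4 were the others. In Cry KO 6 genes were higher and 3 lower (4.35% and 9.04% of all genes). Among the called genes the change of Cyp2c39 was widest, from a median of 0.924 CPM (0.331 to 1.49) to 1.90 (0.596 to 2.85), at 1.09 ± 0.28 (adjusted p 0.00638). Cyp3a25 had the smallest p, at 0.60 ± 0.13 (adjusted p 0.00148), followed by Cyp2d40 at -0.88 ± 0.20 (adjusted p 0.00268). Beside these changes in Cry KO, 7 of 10 acute phase genes were lower under RF (list median -1.20) and 2 of 3 neutrophil markers were lower (median -2.80). Of 5 pancreas markers 3 were higher there (median 8.07), and of the 11 CAR- and PXR-responsive genes 5 were higher. Their part was not tested, and without the 7 libraries that stood apart 4 of the 33 genes were called in Cry KO. No feeding call was kept with the replicate series as a random effect. The WT groups of the 2 feeding comparisons are also the references of the knockout comparisons, so the values stand side by side and share libraries.

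**Figure D5:**
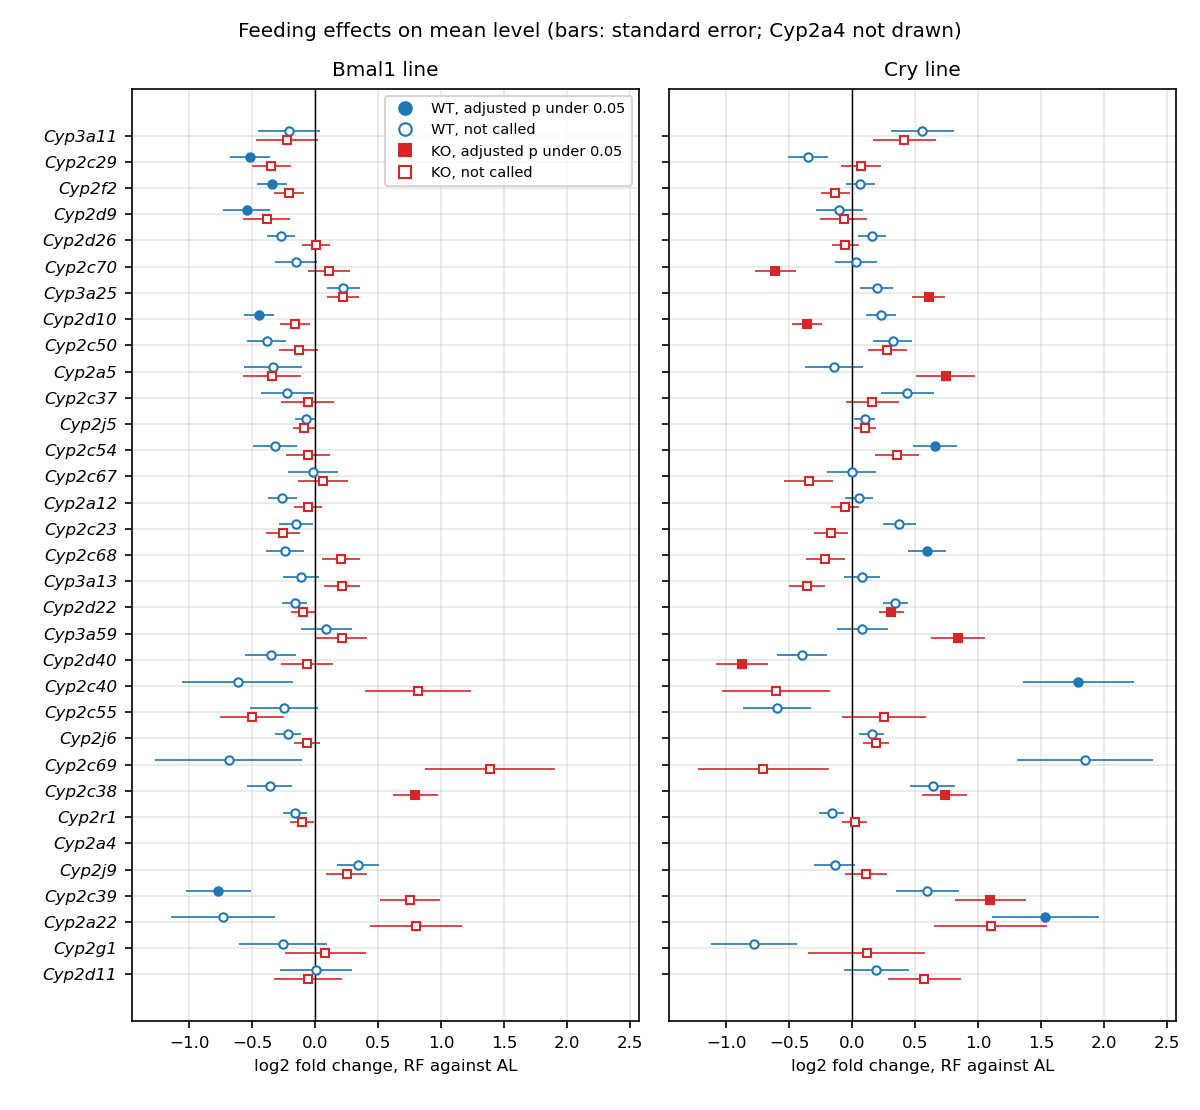
Log2 fold change of RF against AL for each gene within WT (blue) and KO (red) of the Bmal1 line (left) and the Cry line (right); bars are standard errors, filled symbols had an adjusted p under 0.05, and Cyp2a4 is not drawn. Cyp2c40 of Cry WT lies at 1.79, and most other values lie within 1 log2 unit of 0.

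Partners and regulators of the enzymes were read as lists, and Por, PXR, CAR and Alb are named although their values were seen first. Of all genes tested, 10.9% were higher and 9.48% lower in Bmal1 KO AL, and 10% and 8.35% in Bmal1 KO RF. In Cry KO the shares were 15.7% and 11.7% under AL and 2.67% and 2.49% under RF. A count near these shares is not a result about its list. Of 5 electron donors 1 was lower and none higher in Bmal1 KO in each regimen, and 3 were higher in Cry KO AL. Por, the reductase, fell by 0.96 ± 0.15 (adjusted p 2.12e-06) in Bmal1 KO AL and by 0.59 ± 0.15 (adjusted p 0.00339) under RF, and rose by 0.68 ± 0.15 (adjusted p 0.000666) in Cry KO AL. Of 8 haem synthesis genes 1 was lower in Bmal1 KO AL, 1 was higher and 1 lower in Bmal1 KO RF, and 2 were higher in Cry KO AL. Of 14 xenobiotic receptors and liver factors, 1 was higher and 4 lower in Bmal1 KO AL, 1 and 2 under RF, 4 and 1 in Cry KO AL and none in Cry KO RF. PXR (Nr1i2) was among them, lower in Bmal1 KO AL (-0.40 ± 0.09, adjusted p 0.00129) and higher in Cry KO AL (0.47 ± 0.09, adjusted p 0.000196). CAR (Nr1i3) was called in none of the 4 knockout comparisons. Of the 4 PAR bZIP genes with Nfil3, 1 was lower in Bmal1 KO AL, 1 was higher and 2 were lower under RF, and 3 were higher in Cry KO in each regimen. The median of Dbp was 7.17 CPM (0.288 to 158) in Bmal1 WT AL and 3.08 (2.00 to 4.75) in Bmal1 KO AL, and 6.03 (0.394 to 123) in Cry WT AL and 78.2 (47.8 to 103) in Cry KO AL. Dbp was rhythmic in the WT groups with peaks near ZT10.3 to ZT10.6 and not in the KO groups, and its mean log level differed by -1.85 ± 0.21 in Bmal1 KO AL and 3.48 ± 0.20 in Cry KO AL.

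Of 11 CAR- and PXR-responsive genes outside the 33, Cyp2b10 included, 3 were higher and 4 lower in Bmal1 KO in each regimen. In Cry KO 3 were higher and 3 lower under AL, and 2 and 2 under RF. These counts and those that follow are to be read beside the shares of all genes given for the lists above. Higher in both Bmal1 comparisons were Cyp2b10 (2.54 ± 0.45 and 3.70 ± 0.48), Akr1b7 (1.96 ± 0.40 and 2.86 ± 0.39) and the transporter Slco1a4 (1.57 ± 0.24 and 1.62 ± 0.24). The efflux pump Abcb1a was lower there (-1.78 ± 0.25 and -1.42 ± 0.25) and higher in the Cry line (1.03 ± 0.24 and 1.24 ± 0.24). Slco1a4 was lower in Cry KO AL (-1.64 ± 0.25), and Sult5a1 was lower in Bmal1 KO and in Cry KO AL. Of 10 female-biased genes outside the 33, Cyp2b9 and Cyp2b13 included, 3 were higher and 3 lower in Bmal1 KO AL. Under RF 3 were higher and 2 lower, with Atp6v0d2 higher and Acot3 and Cyp17a1 lower in both regimens. In Cry KO 2 were higher under AL, Cyp2b9 and Acot3. Of 10 male-biased genes 1 was higher and 2 lower in Bmal1 KO AL and 1 and 3 under RF, with Elovl3 higher and Cyp4a12a and Selenbp2 lower in both. Of 9 growth hormone signalling genes 2 were higher in Bmal1 KO in each regimen. Of 9 periportal genes 2 were lower in Bmal1 KO AL, 1 was higher and 2 were lower in Bmal1 KO RF, 3 were higher and 1 was lower in Cry KO AL, and 1 was higher in Cry KO RF. Pck1 (1.31 ± 0.25) and G6pc (1.08 ± 0.23) were among those higher in Cry KO AL. Of the 11 pericentral genes, 5 were lower and none higher in Cry KO AL.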

How the data were processed

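Liver RNA was extracted with guanidinium, and 250 ng of total RNA went into stranded mRNA libraries with 11 PCR cycles and paired 100-cycle reads, per the labels' protocols. The authors deposited whole-number read counts per gene for all 96 libraries; STAR 2.4.0i and mm10 are named in the submitters' processing notes, and the sources used here do not state the counting program or its strand setting. Counts were fitted here with edgeR 4.0.16 (R 4.3.3, quasi-likelihood test, TMM scaling, filterByExpr with a minimum count of 10 over the groups at each time) in 1 fit of all libraries, and levels averaged over 6 times were contrasted. Rhythm was tested with a 24 h cosine per group. P-values were adjusted by Benjamini-Hochberg over 18326 genes. CPM uses TMM-scaled totals, so 0.5 CPM equals 0.739 counts at the lowest depth and 12.7 at the median depth. Intervals and errors do not cover PCR duplicates.

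The genes and lists were chosen with earlier results of these data known. Values are given in full for genes called with an absolute log2 fold of at least 1 (or the 3 smallest p-values), the 5 highest per length, rhythmic genes, and genes called in opposite directions in the 2 lines. Alternatives were DESeq2 1.42.0, limma 3.58.1 (voom) with the replicate series as a random effect, RLE scaling, no filter on low counts, the compared groups alone, the 7 libraries left out, each series left out in turn, a replicate block and, chosen after seeing the data, a filter by group. In simulated counts for Bmal1 KO against WT under AL (18326 genes), 68.7% of 1.5-fold, 88.1% of 2-fold and 100% of 4-fold changes were recovered. These libraries too were drawn with no shift shared by a series, so recovery in the real counts may be lower.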

Additional observations from a re-analysis of the deposited data

Results flagged for a closer look

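Each value here is a difference between 2 effects, on the log2 scale, that passed the test of that difference (edgeR, adjusted p under 0.05). In the Cry line, the knockout effect differed between the feeding regimens for 4 genes, where 3.93% of all genes did. None of these 4 calls was kept with the replicate series as a random effect. The effect under RF minus that under AL was -0.5854 for Cyp2d10, -0.804 for Cyp2c68, -2.4 for Cyp2c40 and -2.554 for Cyp2c69.

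Between the lines, 14 genes differed under AL, where 34.5% of all genes did. Of these calls, 10 were kept with the replicate series as a random effect. Those of Cyp2j6, Cyp2r1, Cyp2a4 and Cyp2g1 were lost. The Cry knockout effect minus the Bmal1 knockout effect was positive, at 1.009 for Cyp2f2, 1.134 for Cyp2d26, 0.9163 for Cyp2d10, 0.9889 for Cyp2c23, 1.309 for Cyp3a13, 2.66 for Cyp2d40 and 4.397 for Cyp2a4. It was negative, at -1.229 for Cyp2c29, -0.9395 for Cyp3a25, -3.029 for Cyp3a59, -5.585 for Cyp2c55, -0.4415 for Cyp2j6, -0.3769 for Cyp2r1 and -2.233 for Cyp2g1. The steroid hydroxylase Cyp2a4 was near 0 in most libraries, at group medians of 0.076 to 0.686 CPM under AL. Its value thus rests on few counts, and in Bmal1 WT AL 1 library held 90.9% of the group's sum.

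Under RF 18 genes differed between the lines, where 13% of all genes did. Of these calls, 7 were kept with the replicate series as a random effect. They were Cyp2c70, Cyp2a5, Cyp2c68, Cyp3a59, Cyp2d40, Cyp2c55 and Cyp2c38. The other calls were lost, those of Cyp2c40 and Cyp2c69 among them. The difference was positive, at 0.6786 for Cyp2f2, 0.6523 for Cyp2d26, 1.552 for Cyp2a5, 0.5476 for Cyp2c23 and 1.896 for Cyp2d40. It was negative, at -0.9769 for Cyp2c29, -1.149 for Cyp2c70, -0.5236 for Cyp3a25, -1.644 for Cyp2c68, -2.393 for Cyp3a59, -3.582 for Cyp2c40, -4.485 for Cyp2c55, -0.5519 for Cyp2j6, -3.454 for Cyp2c69, -1.305 for Cyp2c38, -1.823 for Cyp2c39, -2.265 for Cyp2a22 and -1.673 for Cyp2g1. Cyp2c29, Cyp2f2, Cyp2d26, Cyp3a25, Cyp2c23, Cyp3a59, Cyp2d40, Cyp2c55, Cyp2j6 and Cyp2g1 differed in the same direction in both regimens.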

How the results depend on the processing

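Of 125 called effects, 46 kept their call under every alternative. DESeq2 kept 125, the filter by group 125, no filter 123, RLE scaling 120, leaving out the 7 libraries 108, the compared groups alone 108, and the replicate series as a random effect 50. Libraries of 1 series are not independent under that last fit, and depth limits Cyp2a4, Cyp2g1, Cyp2d11 and Cyp2c39, which lie at few counts in the shallow libraries. The causes of the changes below were not tested. The counts below are of the 33 genes and stand without the share of all genes called under each setting. They thus do not show whether these genes changed more than others.

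With the replicate series as a random effect, 11 genes were called in Bmal1 KO against WT under AL, 6 in Cry KO against WT under AL, 0 under RF, 0 in each of the 4 feeding comparisons, 0 in the Cry feeding difference and 7 in the difference between the lines under RF. With no filter, 14 genes were called in Cry KO under RF, and 14, 9, 15 and 15 in the feeding comparisons of Bmal1 WT, Bmal1 KO, Cry WT and Cry KO. It also called 5 and 12 in the feeding differences of the Bmal1 and Cry lines. DESeq2 called 8 in the feeding comparison of Cry WT and 2 and 7 in the feeding differences. RLE scaling called 2 in the feeding comparison of Bmal1 WT. Without the 7 libraries, 0 were called in the feeding comparison of Bmal1 KO, 4 in that of Cry KO and 0 in the Cry feeding difference. With the compared groups alone, 3 were called in the feeding comparison of Cry KO and 0 in the Cry feeding difference.

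With no minimum on counts, 13, 13, 4 and 7 genes were rhythmic in Bmal1 WT AL, WT RF, KO AL and KO RF, and 10, 10, 4 and 9 in the same Cry groups. A rhythm difference then passed for 9, 6, 4 and 10 genes. With 6 means for time in place of the cosine, 3 were rhythmic in Bmal1 WT AL and 2 in Bmal1 WT RF.

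Leaving out each series in turn gave 13 to 20 genes in Bmal1 KO under AL, 18 to 23 under RF, 10 to 20 in Cry KO under AL and 0 to 6 under RF. The feeding comparisons gave 0 to 1, 0 to 6, 0 to 8 and 2 to 12, the feeding differences 0 to 1 and 0 to 10, and the differences between the lines 12 to 14 and 13 to 18. Rhythmic genes numbered 1 in Bmal1 WT AL, 0 in Bmal1 WT RF, 0 to 1 in Cry WT AL, 1 to 2 in Cry WT RF and 0 to 1 in Cry KO RF, and the Cry rhythm difference under RF gave 0. Of the effects, 3 reversed, all without replicate 2 of Cry KO AL: Cyp2a12 (-0.06065) and Cyp2d40 (-0.09611) in Cry KO under AL, and Cyp2d10 (0.07383) under feeding in Cry KO. The highest or lowest values on the other side, all without replicate 1 of that group, were 0.6261, 1.17 and -0.716.

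With a replicate block, possible only in the Bmal1 line, where KO and WT share series numbers, 22 genes were called under AL and 23 under RF, and all 45 effects were kept. Same-numbered libraries deviated together only weakly, with correlations of -0.057 to 0.134 under AL and 0.028 to 0.258 under RF. The labels do not state what the number stands for, and whether these libraries shared more than it was not tested.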
